A study of Colocasia esculenta with 9 samples.

Results

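The gene model Taro_025253 took between 0.174% and 14.6% of all counted fragments in 9 leaf libraries of taro (Colocasia esculenta), and 200 other gene models followed its level most closely. They were chosen by Pearson's r with Taro_025253 over the 9 libraries, on log2(CPM + 1), where CPM is the fragments of a gene model per 1e6 fragments counted in its library. Candidates were gene models averaging 5 CPM or more, which 13592 of 57034 did, so the members are the lead and 200 partners. The libraries came from 3 cultivars, Niue (replicates 2, 3 and 4), Palau 10 (also called Ngerruuch, replicates 1, 2 and 3) and Sam-07 (also called Samasama, replicates 1, 2 and 3). All plants were in the vegetative stage at 8 months, had been raised from tissue culture plantlets and were kept in a chamber under 12 h of light per day, at 85% humidity and 27 °C, with no treatment contrast between them. RNA was taken by CTAB extraction from 4 g of the youngest 2 leaves per library and dried for 40 h. The labels do not say whether replicates were separate plants, so p-values measure the spread between these libraries, which may be technical.

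Taro is a clonally propagated aroid, so plants of a cultivar are expected to share a genome apart from somatic changes. A gene model is a predicted exon structure on the assembly, and a young leaf blade mixes dividing, expanding and already photosynthetic cells. CPM divides by the library total, so a gene model that takes a large share of a library lowers the CPM of all others there. In whole leaves, fewer cells that express a gene and less of its RNA per cell cannot be told apart. The files give no names or products, so members are described by identifier, scaffold, exon structure and level, and the labelled tissue could not be checked against marker genes.

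Totals ran from 5468567 to 18175384 fragments per library, and between 22173 and 23527 gene models had a fragment. Palau 10 replicate 3 stood apart from the other Palau 10 libraries in earlier work on these data. Results that rest on a single library are given without it below.

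Taro_025253 has 2 exons of 471 and 69 bp, only 7 bp apart, on the minus strand of TARO_scaffold_001466 from 51161 to 51707. It stood at 4865, 67936 and 146038 CPM in Niue replicates 2, 3 and 4. In Palau 10 it stood at 9707, 3974 and 13742 CPM, and in Sam-07 at 39924, 1742 and 34974 CPM, in the order of replicates 1, 2 and 3. The highest library was Niue replicate 4 and the lowest Sam-07 replicate 2, an 83.9-fold range. Each cultivar held libraries that overlapped those of the others, and the range within a cultivar was 30-fold in Niue, 3.46-fold in Palau 10 and 22.9-fold in Sam-07.

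Its 3 closest partners kept an almost fixed ratio to it. Taro_000496, with 2 exons and 390 bp of exon on the plus strand of TARO_scaffold_000009 (1528505 to 1529228), had r = 0.9995 and a level between 20.7% and 25% of Taro_025253 in every library. Its values were 1116, 15198 and 30287 CPM in Niue, 2430, 979 and 3104 in Palau 10 and 8438, 404 and 7514 in Sam-07. The order of libraries was that of the lead within each of the cultivars. Taro_036193, 231 bp of exon in 2 exons on the minus strand of TARO_scaffold_003029 (49895 to 52595), stayed between 10.0% and 13.8% of the lead, with 614, 7171 and 14650 CPM in Niue, 1337, 550 and 1812 in Palau 10 and 4441, 213 and 3960 in Sam-07. Taro_025252 is the next gene model to the lead on the same strand of TARO_scaffold_001466 (47022 to 49953), 1207 bp away. It stayed between 29.6% and 38.4% of the lead, with 1443, 24639 and 54434 CPM in Niue, 3729, 1178 and 5226 in Palau 10 and 14097, 630 and 12572 in Sam-07. The SD of the log2 ratio to the lead over the 9 libraries was 0.09, 0.17 and 0.14 for Taro_000496, Taro_036193 and Taro_025252, the smallest among the 197 partners with a fragment in every library, whose median was 1.8.

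**Figure D1:**
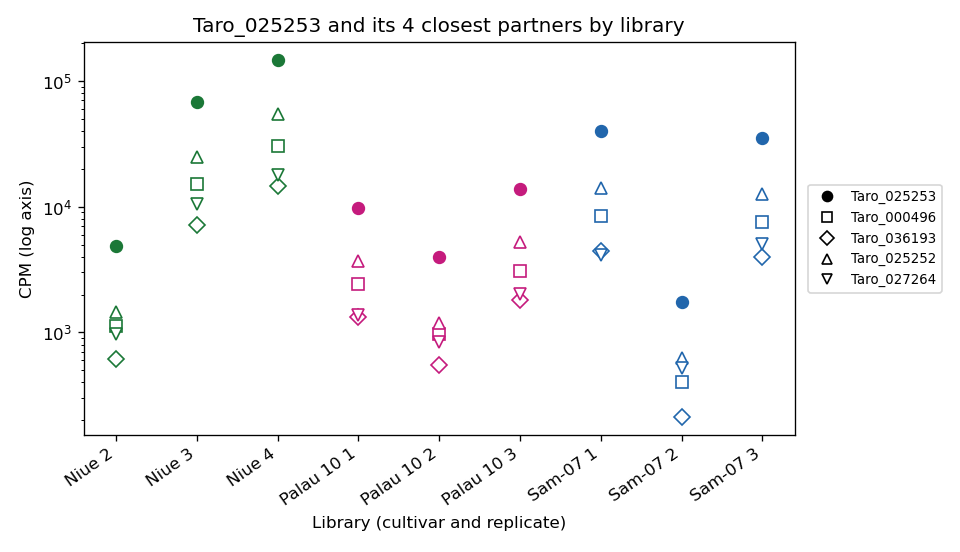
Level in CPM (log axis) of Taro_025253 (filled circles) and its 4 closest partners (open symbols) in each of 9 libraries, coloured by cultivar. The symbols move together: all 5 gene models are highest in Niue replicate 4 and lowest in Sam-07 replicate 2, where Taro_025253 stands at 146038 and 1742 CPM.

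Taro_027264 was the fourth partner (r = 0.989) and the only one of these 5 gene models with more than 2 exons. It has 6 exons and 1157 bp of exon on the plus strand of TARO_scaffold_001695 (9887 to 32692). It stood at 967, 10489 and 17741 CPM in Niue, 1368, 838 and 2009 in Palau 10 and 4143, 523 and 5064 in Sam-07. Its ratio to the lead was looser, from 10.4% to 30%, and highest in Sam-07 replicate 2, where the lead was lowest. Per length, as mean fragments per kilobase of exon per 1e6 fragments over the 9 libraries, Taro_025253 had 66440.5, Taro_000496 19792, Taro_036193 16714, Taro_025252 15943 and Taro_027264 4143. No other member reached their level per length, the next being Taro_055768 at 2881.

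The members together took 0.619% of the fragments in Sam-07 replicate 2 and 28.7% in Niue replicate 4, with a median of 4.04% over the libraries. The lead with its 4 closest partners made up between 56.7% and 91.8% of that share. The other 196 members held between 0.268% and 2.46% of each library, the lowest value again in Sam-07 replicate 2.

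The level of Taro_025253 was higher in libraries with fewer counted fragments. The 2 smallest totals, 5468567 fragments in Niue replicate 4 and 6083660 in Niue replicate 3, belonged to the 2 highest levels, and the largest total to the lowest. Across the 9 libraries, log10 of the total and log2(CPM + 1) of Taro_025253 had Pearson r = -0.93 (exact two-sided permutation p = 7.16e-05) and Spearman rho = -0.93 (exact p = 0.00075). The permutations ignored cultivar, so these p-values treat all 9 libraries alike and make no allowance for the grouping. Without the 2 libraries farthest from the median total, Niue replicates 3 and 4, r was -0.88 (exact permutation p = 0.0048) over 7 libraries and rho was -0.86 (exact p = 0.024). Taro_025253 and its 4 closest partners are themselves part of the total. With them taken out of it, r was again -0.93 (exact permutation p = 4.68e-05), and adjustment over these 2 relations gave 7.16e-05 for both. The CPM of the lead still divided by the full total there, so the shared part was not removed. Both relations use the same levels of the lead and are not separate results. The partners were chosen to follow the lead, and the part of depth in the levels of the members was not tested.

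**Figure D2:**
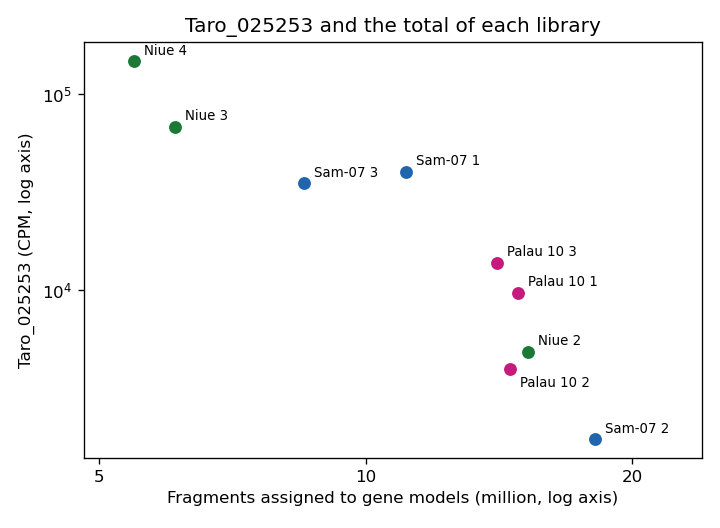
Level of Taro_025253 in CPM against the fragments counted per library, both on log axes, with 1 point per library coloured by cultivar. The level falls from 146038 CPM at 5468567 fragments to 1742 CPM at 18175384 fragments. The Palau 10 libraries lie close together in total, from 14069579 to 14857098 fragments, at 3974 to 13742 CPM.

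The members ranged from close to loose followers of the lead, and are divided here at r = 0.8, a bound that marks no step. By the values that chose them, 25 had r of 0.9 and over (the lead included), 26 had 0.8 to 0.9, 38 had 0.6 to 0.8 and 112 had less than 0.6. Just inside the limit of 200 partners stood Taro_004651 (r = 0.4583) and Taro_052995 (r = 0.4565), and just outside it Taro_022538 (r = 0.4562) and Taro_024699 (r = 0.4552), so the limit of 200 marks no step either. Taro_052995 had 25.5, 65.4 and 63.6 CPM in Niue, 18.8, 17.5 and 49.5 in Palau 10 and 39.1, 57.4 and 30.3 in Sam-07. It was thus high in Sam-07 replicate 2, where the lead was lowest. Over all 13592 candidates the median r was -0.34, and 229 had an r of -0.8 or less against 50 partners at 0.8 or more. The lead and its 4 closest partners took up to 26.3% of a library, which lowers other CPM where the lead is high. The part of this in the negative r was not tested.

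The slope of a member on the lead is the change in its log2(CPM + 1) per unit change in that of Taro_025253. It is computed from the same values as r, so slopes and folds describe the members above and below r = 0.8 and are no further evidence of a division. The median slope was 0.80 among the 51 members with r of 0.8 and over and 0.19 among the 150 others, against -0.06 over all candidates. A slope of 0.75 or more was found in 37 members, 35 of them in the close set. A slope under 0.25 was found in 96 members, none of them in the close set. The median fold between the highest and the lowest library was 48.2 among the 50 partners of the close set and 5.13 among the other partners, where a fold could be given. In 3 of the looser members, Taro_036379, Taro_054761 and Taro_019517, at least 1 library had no fragment.

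**Figure D3:**
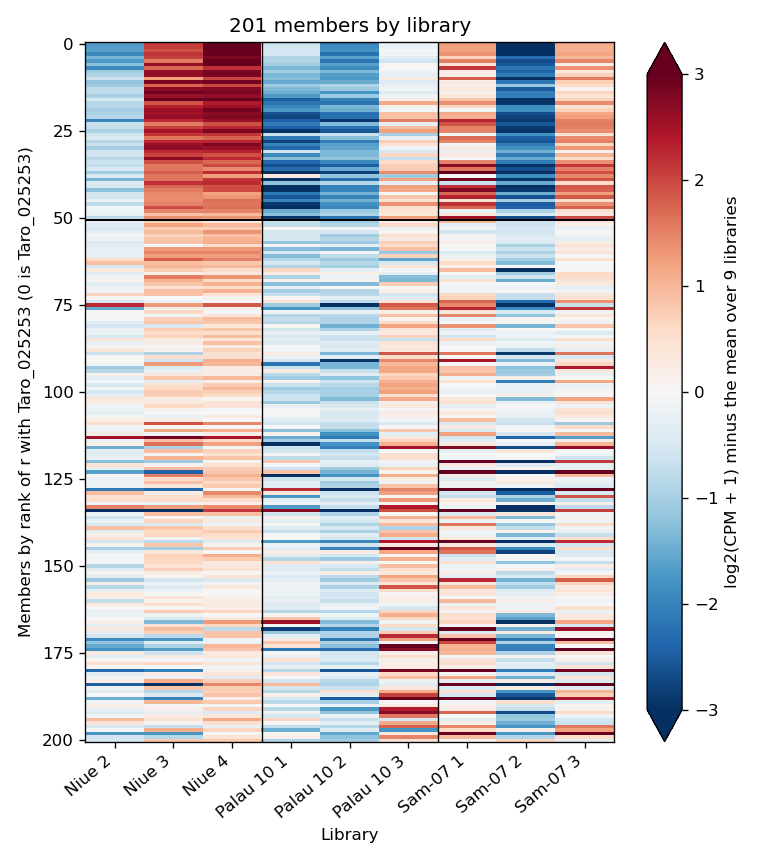
log2(CPM + 1) of each of the members (from top to bottom by rank of r with Taro_025253) in 9 libraries (left to right) as the difference from its own mean, with red above and blue below and the scale ending at 3 in both directions. The 51 members above the horizontal line, with r of 0.8 and over, are high in Niue replicates 3 and 4 and low in Sam-07 replicate 2 and in Palau 10 replicates 1 and 2, while most of the 150 below it vary less, in more mixed patterns.

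Which of the members were chosen depended on the libraries used. When each library was left out in turn and the choice repeated, 96 to 181 of the 200 partners stayed. The fewest stayed without Sam-07 replicate 2 (96), Niue replicate 4 (110) and Niue replicate 3 (115). Of the 50 partners with r of 0.8 and over, 47 to 50 stayed each time, and of the 150 others 46 to 131. The 50 stood far above the limit of r = 0.4565 by the same choice, so their staying was largely expected and is no separate result. With levels centred on the mean of each cultivar first, so that only differences within cultivars counted, all 50 stayed and 34 of the 150. With the replicate number removed as a block as well, 27 of the 50 stayed and 9 of the 150.

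Within the close set, members shared the rise above replicate 2 in Niue and Sam-07, but not the whole order of Palau 10, nor the height between cultivars. All 51 were higher in Niue replicates 3 and 4 than in Niue replicate 2, and higher in Sam-07 replicates 1 and 3 than in Sam-07 replicate 2. Palau 10 replicate 3 was above Palau 10 replicate 1 in 49 of 51 and above Palau 10 replicate 2 in 50 of 51. The lead stood 2.44-fold higher in Palau 10 replicate 1 than in replicate 2. Only 16 of 51 were higher there (median ratio 0.80 on CPM + 1), against 59.9% of all candidates. Over all candidates, by comparison, 24.7% were higher in Niue replicate 4 than in Niue replicate 2, and 25.9% were higher in Sam-07 replicate 1 than in Sam-07 replicate 2. The lead and its 4 closest partners took 26.3% of the fragments in Niue replicate 4, which lowers the CPM of other candidates there. The orders that the close set shares with the lead follow from the choice by r and are no separate result.

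The ratio between libraries where the lead was high set members apart. Taro_025253 itself stood 0.588 times as high in Sam-07 replicate 1 as in Niue replicate 3. In 19 members of the close set this ratio was under 0.3 (median 0.183), in 18 it lay from 0.3 to 1, and in 14 it was over 1 (median 1.55). These bounds mark no step. The first class ended at 0.284 and the next began at 0.316, and the last 2 met at 0.996 and 1.05. Taro_055768, of 3 exons and 294 bp on the minus strand of TARO_scaffold_013711 (2070 to 3514), is of the first kind, with 198, 2594 and 3011 CPM in Niue, 208, 163 and 377 in Palau 10 and 475, 78.4 and 518 in Sam-07. It was high in Niue replicates 3 and 4, and its other 7 libraries lay below 520 CPM. Taro_043351, of 2 exons and 417 bp on TARO_scaffold_004679 (15109 to 23002, minus strand), had 20.3, 308 and 444 CPM in Niue, 23.4, 15.3 and 52.2 in Palau 10 and 66.3, 7.54 and 55.1 in Sam-07, with the same 2 Niue libraries standing out. Taro_000008 (TARO_scaffold_000001, 308683 to 309060, plus strand) reached 58.4 and 65.8 CPM in Niue replicates 3 and 4 and no more than 14.2 CPM elsewhere.

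Members of the last kind were higher in Sam-07 replicate 1 than in Niue replicate 3, though several, among them Taro_056118, Taro_014965, Taro_000498 and Taro_000495, were highest in Niue replicate 4. Taro_042180, of 2 exons and 1794 bp on the plus strand of TARO_scaffold_004343 (13574 to 15480), had 48.8, 356 and 468 CPM in Niue, 11.0, 13.9 and 271 in Palau 10 and 833, 7.98 and 385 in Sam-07. Its highest library was Sam-07 replicate 1, and Palau 10 replicate 3 stood 24.7-fold above Palau 10 replicate 1. Taro_056118, of 3 exons and 1296 bp on TARO_scaffold_014872 (6546 to 8830, minus strand), had the steepest slope on the lead among all members, 1.06. It stood at 160, 2976 and 3836 CPM in Niue, 116, 83.4 and 1812 in Palau 10 and 3147, 85.1 and 1809 in Sam-07. Its ratio to the lead ran from 1.2% in Palau 10 replicate 1 to 13.2% in Palau 10 replicate 3. Among the 5 steepest slopes were also those of Taro_027665 (TARO_scaffold_001741, 257945 to 258251) and Taro_025597 (TARO_scaffold_001504, 2003 to 3386), whose highest levels were 758 CPM in Niue replicate 4 and 706 CPM in the same library.

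**Figure D4:**
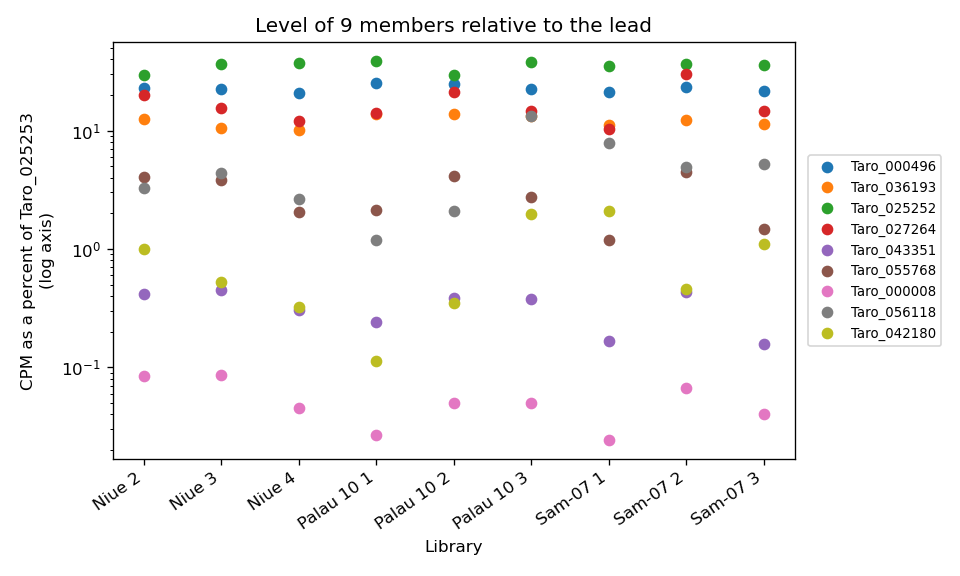
CPM of 9 members as a percent of the CPM of Taro_025253 in the same library (log axis), with 1 point per library. Taro_000496, Taro_036193 and Taro_025252 stay near constant, while Taro_056118 runs from 1.2% to 13.2% and Taro_042180 from 0.113% to 2.09%.

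The library in which a member was highest is again bound to the choice by r. The highest library was Niue replicate 3 or 4 in 42 of the 51 close members and Sam-07 replicate 1 in the other 9. Among the 150, it was Palau 10 replicate 3 in 36, Niue replicate 3 in 34, Sam-07 replicate 1 in 30, Niue replicate 4 in 27, Sam-07 replicate 3 in 17, and Niue replicate 2 and Palau 10 replicate 1 in 3 each. The share highest in Palau 10 replicate 3, 24%, was close to the 25.1% of all candidates. Niue replicates 3 and 4 were highest in 22.7% and 18% of the 150, against 4.16% and 0.75% of all candidates. The lead and its 4 closest partners took 12.5% and 26.3% of the fragments there. That lowers all other CPM in these libraries, and shares without those 5 gene models in the totals were not computed. Some of the 150 varied more than the lead itself. Taro_039530 (TARO_scaffold_003692, 94532 to 96105, plus strand), singled out after its values were seen, had 8.79, 7.56 and 43.2 CPM in Niue, 202, 3.78 and 121 in Palau 10 and 1580, 0.275 and 576 in Sam-07. Only 5 fragments lay behind the value in Sam-07 replicate 2, and Niue replicates 3 and 4, the 2 highest libraries of the lead, lay far below Sam-07 replicate 1. Others varied far less than the lead, such as Taro_025661 (TARO_scaffold_001509, 107601 to 109333), also singled out afterwards, with a 2.12-fold range, near the candidates' median of 2.38 on CPM + 1, and values between 432 CPM in Sam-07 replicate 2 and 917 CPM in Palau 10 replicate 3.

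Gene structure, which the choice did not use, differed between the close set and the 150 others. The 51 members with r of 0.8 and over had a median summed exon length of 402 bp, against 1636.5 bp in the 150 others and 1662 bp over all candidates. Of the 51, 29 (56.9%) were shorter than 500 bp, against 4.67% of the 150 and 4.90% of the candidates. They had a median of 2 exons, and 35 (68.6%) had 1 or 2 exons, against 19.3% and 20.1%. At the other end, 5 of the 51 (9.80%) had 6 or more exons, against 46.6% of all candidates. The longest close member was Taro_015241, with 4584 bp of exon in 6 exons.

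Other marks of the annotation went with the close set. The summed exon length was a multiple of 3 in 47 of 51 (92.2%), against 50.7% of the 150 and 50% of all candidates, where 3 is the length of a codon. Of the 48 close members with more than 1 exon, 13 (27.1%) had exons less than 30 bp apart, as in Taro_025253 (7 bp) and Taro_007077 (4 bp), against 4.57% of the candidates. None of the 51 overlapped another gene model from first to last exon, against 6.38% of the candidates. Their median span was 963 bp, against 5343.5 bp in the candidates, and this share makes no allowance for span. Of the 51, 54.9% lay on the plus strand, against 50%. Their levels per length were also higher, with a median of 121 fragments per kilobase per 1e6 against 7.57 in the 150 and 15.8 in the candidates, although the filter on CPM bears on short gene models more strongly on that scale. No test was made of these shares, as the members were chosen with results of these data known.

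**Figure D5:**
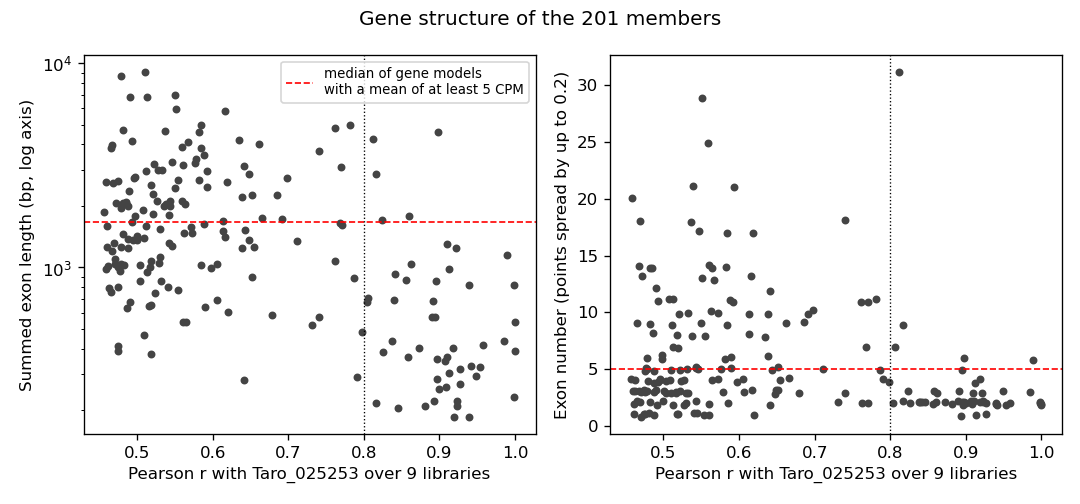
Summed exon length (left, log axis) and exon number (right) of the members against r with Taro_025253, with the median of 13592 candidates as a dashed red line (1662 bp and 5 exons) and r of 0.8 as a dotted line. Members to the right of the dotted line are mostly below both medians.

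Members also lay next to each other on scaffolds. The members lay on 175 scaffolds, 18 of which held at least 2, and 33 members had a member as the next gene model, in 13 runs. Among the neighbours of the close set that were themselves candidates, 76.9% were members, against 10.2% for the 150 others and 1.37% for the neighbours of all candidates. In the 20 adjacent pairs of members the median r between neighbours was 0.97 and the median gap 1180 bp. Over the 5002 adjacent pairs of candidates the median r was 0.27. Neighbours in a run share the pattern they were chosen for, so a high r within a run is expected from the choice.

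The longest run held 5 gene models, Taro_000494 to Taro_000498, between 1524880 and 1557563 on TARO_scaffold_000009, which carries 55 gene models. Their strands were minus, minus, plus, plus and minus, and their r from 0.897 to 0.9995. Around Taro_000496, which reached 30287 CPM in Niue replicate 4, the others of this run were far lower. Taro_000497 had 8.40, 89.7 and 357 CPM in Niue, 16, 5.91 and 19.4 in Palau 10 and 87.1, 3.91 and 85.3 in Sam-07. Taro_000495 reached 366 CPM in Niue replicate 4 and 363 CPM in Sam-07 replicate 1, Taro_000494 reached 108 CPM and Taro_000498 108 CPM, both in Niue replicate 4. The gene models on either side of the run were nearly silent, with 31 fragments in all for Taro_000493 and 12 for Taro_000499 over the 9 libraries.

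Other runs were of 4 and 3 gene models. Taro_014963 to Taro_014966 lie on the plus strand of TARO_scaffold_000634 (418547 to 448493). Taro_014966 had 54.4, 281 and 368 CPM in Niue, 14, 16.1 and 156 in Palau 10 and 596, 8.64 and 405 in Sam-07. Taro_014965 (r = 0.940) had its highest level in Niue replicate 4 instead, 118 CPM, and Taro_014963 was the loosest, at r = 0.642. On TARO_scaffold_018858 the 3 gene models Taro_057027, Taro_057028 and Taro_057029 (2335 to 5036, plus strand) are all that the scaffold holds, and all are members. They reached 364, 765 and 125 CPM in Niue replicate 4. On TARO_scaffold_000220, Taro_007076 and Taro_007077 lie 8 bp apart on the minus strand and had r = 0.9995 with each other, with 1991 and 1347 CPM in Niue replicate 4. Taro_007075, on the opposite strand and 1153 bp from Taro_007076, reached only 18.7 CPM. Counting did not use strand, so a member also counts RNA made from the other strand over its exons.

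TARO_scaffold_001466 holds 3 gene models in all. The third, Taro_025254, 160571 to 161303 on the plus strand, had no fragment in any library. Fragments that mapped to several places or overlapped several gene models were not counted, so near-identical copies of the members elsewhere in the assembly would be undercounted, and this was not checked for lack of the genome.

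The design also asks whether members differed between the cultivars. In edgeR's quasi-likelihood F-test over all 18865 tested gene models, all members were tested and 2 (Taro_031116 and Taro_030489) were called among the 3 cultivars at an adjusted p under 0.05, against a background of 2.72% of tested gene models. Taro_025253 was not called (adjusted p = 0.56). With TMM factors the mean level was 81067 ± 84080 CPM in Niue, against 8564 ± 4500 CPM for Palau 10 libraries and 28299 ± 23554 CPM for those of Sam-07 (SD, n = 3 each), so the spread within Niue and Sam-07 was about as large as the means. The log2 fold changes were -3.24 (SE 1.45, adjusted p = 0.44) for Palau 10 against Niue, -1.52 (SE 1.36, adjusted p = 0.83) for Sam-07 against Niue and 1.72 (SE 1.37, adjusted p = 0.76) for Sam-07 against Palau 10. A difference of this size could not be told from the spread between libraries, which does not show that the cultivars were alike. On log2(CPM + 1), differences between cultivar means held 20.7% of the sum of squares of the lead and a median of 28.8% over the members, against 21.5% over all candidates.

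In the pairwise comparisons, 2 members were called between Palau 10 and Niue (background 1.81%), 1 between Sam-07 and Niue (background 1.22%) and 0 between Sam-07 and Palau 10 (background 1.73%), where DESeq2 called 2. An unadjusted p under 0.05 in edgeR was found for 52 members (25.9%, against 11.5% of all tested gene models) between Palau 10 and Niue. It was found for 23 (11.4%, against 9.72%) between Sam-07 and Niue and for 7 (3.48%, against 10.3%) between Sam-07 and Palau 10. The count of 52 changed with the library left out. It became 24 without Niue replicate 4 or Palau 10 replicate 2, and 107 without Palau 10 replicate 3. The share of all tested gene models called at an adjusted p under 0.05 in edgeR moved the same way. It went from 1.81% to 0.806%, 0.953% and 2.21% in the same order. No share over all gene models was computed for the unadjusted counts, so a dependence particular to the members is not shown. All edgeR calls on the 9 libraries were of members lower than in Niue (background of lower calls 1.18% in Palau 10 and 0.758% in Sam-07). The count depended on the tool: DESeq2 called 21 members among the 3 cultivars (background 6.01%), 26 between Palau 10 and Niue (3.8%), 3 between Sam-07 and Niue (3.09%) and 2 between Sam-07 and Palau 10 (3.92%). With RLE factors 1 was called among the cultivars (background 2.73%). With the replicate number as a block none was called, against backgrounds of 0.133%, 0.0053% and 0.0477% among the cultivars, in Palau 10 and in Sam-07 against Niue. That block leaves Niue replicate 4, the only library with its number, out of the contrasts. The median log2 fold change of the members was -0.87 for Palau 10 against Niue and -0.51 for Sam-07 against Niue, comparisons that share the Niue libraries, and 0.58 for Sam-07 against Palau 10. Over all tested gene models the medians were 0.02, 0.03 and 0.02. Because the members follow the lead, these medians and the shares with an unadjusted p under 0.05 repeat its pattern and are not separate results.

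Taro_031116, of 2 exons and 3160 bp on the minus strand of TARO_scaffold_002183 (178175 to 182862), was called against both cultivars. It stood at 8.59, 24 and 16.8 CPM in Niue, 3.43, 3.09 and 3.91 in Palau 10 and 3.88, 3.14 and 2.11 in Sam-07, with all Niue libraries above all others. Its log2 fold changes were -2.39 (SE 0.42, edgeR adjusted p = 0.024) in Palau 10 and -2.46 (SE 0.43, adjusted p = 0.029) in Sam-07. The call in Palau 10 was lost without Niue replicate 3 or 4, without Palau 10 replicate 1 or 2 and with the replicate block, and over the 14 alternatives the adjusted p ran from 2.16e-05 to 0.25. The call in Sam-07 was lost under 8 of 14 alternatives (adjusted p from 1.46e-05 to 0.32), among them each that left out a library other than Niue replicate 2 and Palau 10 replicate 3.

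Taro_037062, of 2 exons and 525 bp on TARO_scaffold_003183 (36158 to 36900, plus strand), had 6.03, 15.6 and 12.4 CPM in Niue, 1.55, 1.24 and 0.569 in Palau 10 and 4.33, 1.27 and 5.40 in Sam-07. Its log2 fold change in Palau 10 against Niue was -3.48 (SE 0.70, edgeR adjusted p = 0.046), and the call was lost under 9 of 14 alternatives (adjusted p from 3.53e-05 to 0.29), including the omission of any library other than Sam-07 replicate 2. Taro_030489, a single exon of 2667 bp on TARO_scaffold_002099 (137969 to 140635, plus strand), had 51.4, 67.7 and 49.2 CPM in Niue and no more than 10.6 CPM elsewhere. It was called over the 3 cultivars (edgeR adjusted p = 0.048) and in no pair, and the call was lost under 9 of 14 alternatives (adjusted p from 9.81e-06 to 0.18). These called members belong to the looser remainder, with r of 0.560, 0.731 and 0.554.

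Complete separation of a cultivar was also counted. In 6 members (2.99%) all Niue libraries lay above the other 6 (background 0.743%), namely Taro_037062, Taro_055937, Taro_031116, Taro_030489, Taro_024751 and Taro_019376, and none had an r of 0.8 or more. In 1 member (0.498%), Taro_028760, all Palau 10 libraries lay below the other 6 (background 1.16%). No member had all Niue libraries below the rest (background 3.97%) or all Palau 10 libraries above it (background 3.37%). None had all Sam-07 libraries above or below the rest (background 1.28% and 1.47%). Niue replicates 3 and 4 were by the choice high in most members, so the Niue count repeats the choice in part.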

How the data were processed

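Per the file headers, the deposited counts are fragments (read pairs) per gene model, summed over exons by featureCounts 1.4.6-p4 with strand not set. Tools named in the submitters' processing notes are Trimmomatic 0.33, bcl2fastq 1.8.4, Subread 1.4.6 and STAR (as 3.5.0a). The sources used here do not name the genome build, and coordinates are those of the files, counted from 1. Per the labels' protocols the libraries were stranded TruSeq.

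Members and lists were chosen with earlier results of these data known. CPM used the file total of each library. The slope is a least-squares slope, and adjacent gene models are neighbours in order of start. The test was that of edgeR 4.0.16 under R 4.3.3 (glmQLFit, glmQLFTest, two-sided, TMM, filterByExpr with a minimum count of 10) on all 9 libraries with cultivar as the only term, with Benjamini-Hochberg adjustment over 18865 gene models. The SE is the log2 fold change over the square root of F. The fit was tested on simulated data. Alternatives were RLE factors, library size only, no filter, DESeq2 1.42.0, the replicate number as a block, other choices of members and leaving out each library. Depth without the 5 most abundant members was added after seeing the data. Correlations with depth were tested over all permutations in place of the planned resampling.

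Named members were the lead, the 10 closest, the 5 highest per length, the 5 steepest, the 3 steadiest, those at the limit, those in runs of 3 or more or on the scaffold of the lead, and those called between pairs. Libraries of a cultivar differed from each other beyond sampling noise (chi-square, gene models of 20 or more fragments). Each was treated as 1 replicate, though this check cannot tell separate plants from separate preparations of the same plant. A library of the smallest total has 3 fragments at 0.549 CPM and one of the largest at 0.165 CPM.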

Additional observations from a re-analysis of the deposited data

How the results depend on the processing

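The number of members called among the 3 cultivars, 2, became 1 with RLE factors, 21 with DESeq2 and 0 under the replicate block, and ran from 0 to 7 with each library left out in turn. Between Palau 10 and Niue the 2 calls became 26 with DESeq2, 0 with the block and 0 to 7 without a library. Between Sam-07 and Niue the single call became 3, 0 and 0 to 2 in the same order, and between Sam-07 and Palau 10 the 0 calls became 2 with DESeq2 and 0 to 2 without a library, the 2 without Sam-07 replicate 2. With that library left out, the 1 call between Sam-07 and Niue was of a member higher in Sam-07, and not of Taro_031116. Without a library, the background was 1.41% to 3.46% among the cultivars, 0.806% to 2.21% for Palau 10 and 0.47% to 1.78% for Sam-07 against Niue, and 0.802% to 2.1% between Sam-07 and Palau 10. The 7 calls arose without Sam-07 replicate 2 (all cultivars) and without Palau 10 replicate 3 (Palau 10 against Niue). Taro_025253 was called under none of the alternatives run, with log2 fold changes from -3.76 to -2.07, from -2.07 to -0.35 and from 1.19 to 2.25 over the omitted libraries. With the replicate block its log2 fold changes were smaller, -1.52, -0.71 and 0.81. Niue replicate 4 is alone with its number, so the block leaves it out of these fold changes.

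Of the 200 partners, 87 stayed with a mean of at least 1 CPM and 79 with at least 20 CPM, which change the gene models eligible. With cultivar means removed 84 stayed, with cultivar and replicate block removed 36, and without a library 96 to 181. The cause of the last 3 was not tested. Spearman's rho kept 151, TMM factors 143 and removal of the 5 most abundant gene models from the totals 138. Under the block, 27 of the 50 partners with r of 0.8 and over stayed. Without a library, the share of fragments was 0.589% to 0.950% at its lowest and 28.5% to 29.0% at its highest, 29 to 37 members lay next to another, and the medians ran from 3 to 6 exons and from 1074 to 1941 bp.

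Over 7 pairs of same-numbered libraries of different cultivars the correlation of deviations from the cultivar means ran from -0.57 to 0.43 and was over 0.1 in 3, so not every pair deviated together and the numbers were not taken to pair the samples. The replicate 2 pairs were at 0.38, 0.43 and 0.01, and replicate 2 is the lowest library of Taro_025253 in each cultivar (4865, 3974 and 1742 CPM). Niue replicate 4 has no partner number, so under the block it adds nothing to the contrasts or to the r that chose partners. Niue replicate 4, the smallest library, limits low members, since 3 fragments are 0.549 CPM there.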
